A study of Sus scrofa with 6 samples.

Results

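The endothelial marker genes described here are the records of a deposited pig muscle table whose name is exactly PECAM1, CDH5, VWF, KDR, TEK, TIE1, CLDN5, EGFL7, ESAM or FLT1. Of these 10 symbols, 6 were matched (PECAM1, VWF, KDR, TEK, EGFL7 and ESAM), out of 7661 gene records in all. For 2 more, TIE1 and FLT1, the table holds records spelled TIE-1 and FLT-1, which the rule did not take; their values are given separately. CDH5 and CLDN5 were matched to no record and are not analysed here. The libraries were made from longissimus muscle, the long back muscle, of 3 pigs (Sus scrofa) with high and 3 pigs with low intramuscular fat (IMF), the fat that lies within a muscle. The labels give no breed, sex, age or diet for either group.

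Endothelial cells line blood vessels, and in skeletal muscle most of them form the capillaries that run along the fibres. Vascular endothelial growth factors act on these cells through receptor tyrosine kinases, among them the proteins of KDR and FLT1, and angiopoietins act through the receptor encoded by TEK. Neighbouring endothelial cells hold together through adhesion molecules such as PECAM-1 and ESAM, while von Willebrand factor is stored in them and released to tether platelets. A bulk library pools all cells of the tissue, so fewer endothelial cells and less RNA per cell cannot be told apart in these values.

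Library totals lay between 25371989 and 28874691 reads in the high group and between 30139025 and 34813172 reads in the low group. Mitochondrially encoded genes took 6.99% to 11.5% of the high and 8.06% to 12.7% of the low libraries. The tissue label was met by muscle fibre genes: 6 matched records, ACTA1, CKM and the myosin heavy chain gene MYH1 among them, summed to between 97821 and 104194 CPM (reads per 1e+06 reads in that library) in the high and between 96628 and 100751 CPM in the low libraries. Spearman correlations across all records were 0.950 to 0.962 between high libraries and 0.915 to 0.940 between low libraries, so that no library repeated another. Levels below are the deposited CPM of each library. They are not divided by transcript length, so they were compared between libraries and never between genes.

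The question was whether endothelial transcripts differ between muscle with high and with low IMF. None of the 6 genes passed the threshold (edgeR quasi-likelihood test, adjusted p under 0.05), and 0.144% of all records did. DESeq2, which called 6.76% of all records, and edgeR's exact test, which called 4.12%, took none of the 6 either. VWF, TEK and PECAM1 had higher averages in the high group, and KDR, EGFL7 and ESAM lower ones, so the 6 genes were split 3 against 3. Their log2 fold changes, high minus low, had a median of 0.03 and ran from -0.41 for KDR to 0.66 for VWF, beside a median of -0.04 over all records. At an unadjusted p under 0.05 there was 1 gene, VWF, while 18.5% of all records reached that level. In deposited CPM the groups overlapped for all 6 genes, whereas 24.2% of all records showed no overlap.

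**Figure D1:**
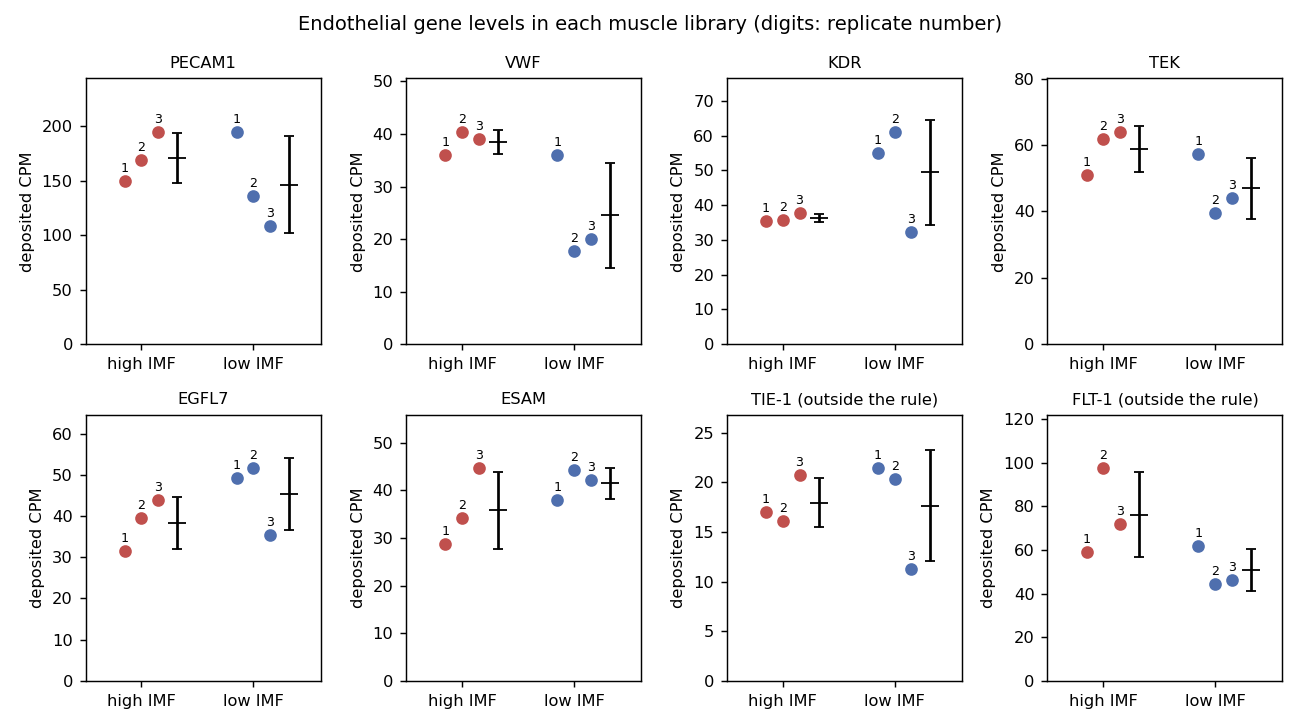
Deposited CPM (y axis, from 0) of the 6 endothelial genes and of the TIE-1 and FLT-1 records in 3 high IMF libraries (red, left) and 3 low IMF libraries (blue, right); digits are replicate numbers, and black bars are the mean ± SD. The groups overlap in all 8 panels, and low library 1 lies inside or above the high range for PECAM1, VWF, TEK and FLT-1.

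A secreted marker of the set is VWF, which encodes the large glycoprotein that endothelial cells store in granules and that carries clotting factor VIII in plasma (ENSSSCG00000000712, chromosome 5, 67005340 to 67078256). It stood at 35.9, 40.5 and 39.1 CPM in high libraries 1 to 3, against 36.05, 17.7 and 19.9 CPM in low libraries 1 to 3. The 3 high libraries were close together, low libraries 2 and 3 lay far below them, and low library 1 lay at the lower edge of the high range. Its mean was 38.5 ± 2.31 CPM in the high group and 24.6 ± 10.0007 CPM in the low group (SD, n = 3 each). The log2 fold change was 0.66 (SE 0.26, 95% interval 0.04 to 1.28), a 1.58-fold difference that did not pass (edgeR quasi-likelihood adjusted p = 0.246). Without low library 1 the log2 fold change was 1.05 and the edgeR quasi-likelihood adjusted p 0.0579, and without low library 2 it was 0.44. After scaling by TMM factors, which correct for RNA composition, all high libraries lay above all low libraries for VWF (lowest high 5.23, highest low 5.16 on the log2 CPM scale). VWF was the 1 of 6 genes without overlap on that scale, and 26.8% of all records shared this property.

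Among the receptors, TEK encodes Tie2, the receptor of angiopoietins, which keep the endothelium quiet or loosen it (ENSSSCG00000005122, chromosome 1, 218222502 to 218293522). TEK had 51.04, 61.7 and 64.04 CPM in the high libraries, against 57.3, 39.6 and 44.03 CPM in the low libraries. Low library 1 again stood among the high libraries, and low libraries 2 and 3 below them. The means were 58.9 ± 6.92 CPM in the high group and 46.99 ± 9.23 CPM in the low group (SD, n = 3 each), a log2 fold change of 0.34 (SE 0.18, 95% interval -0.07 to 0.75, edgeR quasi-likelihood adjusted p = 0.338). It was 0.51 without low library 1 and 0.19 without low library 2, and passed in neither case.

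KDR encodes VEGFR2, the main signalling receptor for VEGF-A on endothelial cells (ENSSSCG00000008844, chromosome 8, 43919343 to 43966953). It ran the other way from TEK. Its levels were 35.4, 35.8 and 37.8 CPM in the high libraries, against 54.9, 61.2 and 32.4 CPM in the low libraries. Low libraries 1 and 2 lay well above all 3 high libraries, and low library 3 lay below them. The high group varied little, with a coefficient of variation of 3.46%, close to the 3.34% that counting alone gives at 899 reads, and the low group varied by 30.6%. The means were 36.4 ± 1.26 CPM in the high group and 49.5 ± 15.1 CPM in the low group (SD, n = 3 each). The log2 fold change was -0.41 (SE 0.20, 95% interval -0.87 to 0.04, edgeR quasi-likelihood adjusted p = 0.306). It was -0.60 without low library 3 (edgeR quasi-likelihood adjusted p = 0.117). KDR has 2 other listed records within 1 Mb, which stood higher in the high group: PDGFRA, a receptor of fibroblasts, had a log2 fold change of 1.43 and ENSSSCG00000028873, which has no symbol, one of 0.88, with neither past the threshold.

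The junction proteins were not uniform either. PECAM1 encodes an adhesion molecule of endothelial contacts that platelets and leukocytes also carry (ENSSSCG00000017277, chromosome 12, 14661766 to 14716424). It had 149.5, 169 and 195 CPM in the high libraries, against 195, 136 and 108 CPM in the low libraries. High library 3 and low library 1 were the highest and nearly equal, and low libraries 2 and 3 were the lowest. The means were 171 ± 22.6 CPM in the high group and 147 ± 44.5 CPM in the low group (SD, n = 3 each). The log2 fold change was 0.25 (SE 0.22, 95% interval -0.26 to 0.75, edgeR quasi-likelihood adjusted p = 0.556). It was 0.52 without low library 1, 0.16 without low library 2, 0.11 without low library 3 and 0.14 without high library 3. None of the 8 platelet markers listed for comparison (such as ITGA2B and PF4) was matched, so the part of platelets in the PECAM1 and VWF levels was not tested.

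ESAM encodes an adhesion molecule of endothelial tight junctions (ENSSSCG00000015200, chromosome 9, 57498520 to 57507892). Its levels were 28.8, 34.1 and 44.6 CPM in the high libraries, against 37.9, 44.2 and 42.2 CPM in the low libraries. High libraries 1 and 2 lay below the low libraries, and high library 3 just above them. It was also the one gene of the 6 with a clearly wider spread in the high group, where the coefficient of variation was 22.5%, against 7.70% in the low group. The means were 35.8 ± 8.06 CPM in the high group and 41.4 ± 3.19 CPM in the low group (SD, n = 3 each), a log2 fold change of -0.19 (SE 0.17, 95% interval -0.60 to 0.21, edgeR quasi-likelihood adjusted p = 0.564). Leaving out high library 3 gave -0.39, and leaving out high library 1 gave -0.07.

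EGFL7 encodes a protein that endothelial cells secrete into the matrix around growing vessels (ENSSSCG00000005828, chromosome 1, 313727477 to 313737435). It had 31.5, 39.6 and 43.9 CPM in the high libraries, against 49.2, 51.6 and 35.4 CPM in the low libraries. Low libraries 1 and 2 were the highest, and low library 3 lay between high libraries 1 and 2. The means were 38.3 ± 6.33 CPM in the high group and 45.4 ± 8.74 CPM in the low group (SD, n = 3 each). The log2 fold change was -0.22 (SE 0.16, 95% interval -0.60 to 0.16, edgeR quasi-likelihood adjusted p = 0.480). It was -0.11 without high library 1 and -0.33 without high library 3. The last 228 bases of the EGFL7 record overlap AGPAT2, an enzyme gene of glycerolipid assembly on the opposite strand. The strand setting of the counting is not given in the sources used here, so reads from that stretch cannot be assigned to either gene. AGPAT2 stood at 11.9, 13.7 and 18.5 CPM in the high libraries, against 20.3, 17.03 and 55.9 CPM in the low libraries, so it was highest in the low library where EGFL7 was lowest.

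Both hyphenated records had positive log2 fold changes, of unequal size. FLT-1 carries the identifier that the Ensembl name table pairs with FLT1, the gene of VEGFR1, which binds VEGF-A and can act as a decoy for it (ENSSSCG00000009320, chromosome 11, 5316370 to 5455380). It had 59.2, 97.5 and 71.8 CPM in the high libraries, against 61.8, 44.6 and 46.2 CPM in the low libraries. Only low library 1 reached into the high range in deposited CPM. The log2 fold change was 0.59 (SE 0.20, 95% interval 0.11 to 1.06, edgeR quasi-likelihood adjusted p = 0.204), near that of VWF. It stayed positive with each library left out (0.40 to 0.76). TIE-1, paired likewise with TIE1, the gene of the second Tie receptor, had 17.03, 16.1 and 20.7 CPM in the high libraries, against 21.4, 20.3 and 11.3 CPM in the low libraries. Its groups overlapped widely, with a log2 fold change of 0.06 (SE 0.23, edgeR quasi-likelihood adjusted p = 0.911). Its sign rested on single libraries: the log2 fold change was -0.14 without low library 3, -0.06 without high library 3 and 0.24 without low library 1. With both records counted, a choice made after seeing the table, the median log2 fold change of the 8 records was 0.15 and 0 passed the threshold.

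**Figure D2:**
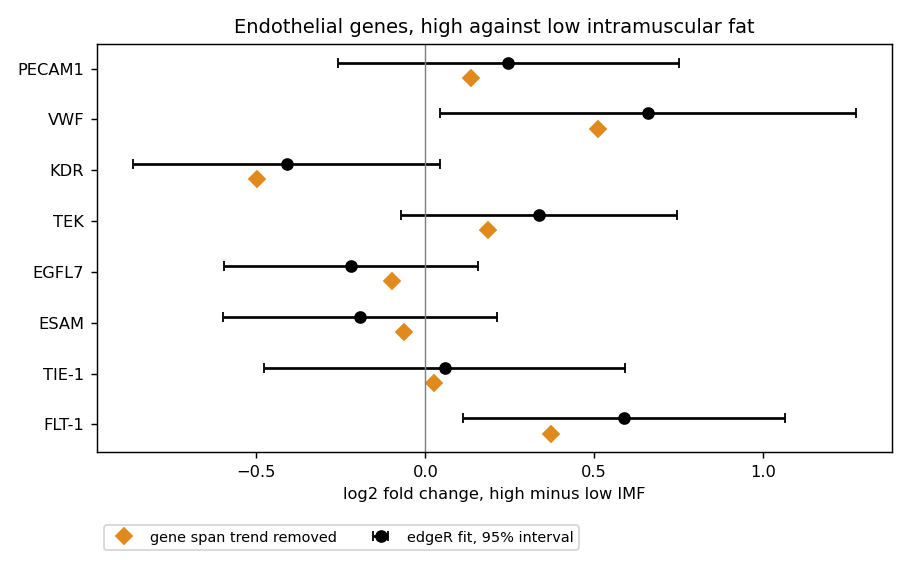
Log2 fold change (x axis, high minus low IMF) of each endothelial gene from the edgeR fit over all records, with its 95% interval (black, n = 3 libraries per group), and after removal of the trend with genomic span (orange diamonds). The intervals of VWF and FLT-1 lie above 0, those of the other 6 include 0, and removal of the trend left every sign as it was.

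The authors' deposited table, whose fold changes run low over high, puts none of the 6 genes under a false discovery rate of 0.05. In that table the rate was 0.167 for VWF, 0.413 for KDR, 0.504 for TEK, 0.692 for EGFL7, 0.7001 for PECAM1 and 0.747 for ESAM. Of the 6 genes, VWF was nearest to the threshold there, as in the fit used here. The deposited rates are not a separate result: edgeR's exact test on the same counts gave the same rates to the digits printed.

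All 6 genes exceeded 10 CPM in every library, the floor that each listed record exceeds in at least 3 libraries. Each was read between 556 times (VWF in low library 2) and 6799 times (PECAM1 in low library 1) in a library. At 556 reads, counting alone gives a relative SD of 4.24%. Within each group the coefficient of variation of every gene was wider than the counting SD at its lowest count, least so for KDR in the high group. In the low group the coefficients of variation ran from 7.70% for ESAM to 40.7% for VWF, with a median of 25.0%, beside a median of 16.4% over all records. In the high group they ran from 3.46% for KDR to 22.5% for ESAM, with a median of 12.5%, beside 11.1% over all records. Between the highest and the lowest of the 6 libraries the CPM differed 1.55-fold for ESAM and 2.28-fold for VWF, the ends of the range.

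Summed over the 6 genes, the libraries held 332, 381 and 424 CPM in the high group, against 431, 350.2 and 282 CPM in the low group. The largest and the smallest sum were therefore both in the low group, in libraries 1 and 3. PECAM1 made up 45.0%, 44.4% and 45.9% of the sum in the high libraries, against 45.3%, 38.8% and 38.4% in the low libraries. Without PECAM1 the sums were 183, 212 and 229 CPM in the high group, against 235, 214 and 174 CPM in the low group, with the same libraries at the ends.

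How far the 6 genes varied together depended on whether the difference between the groups was counted. Of their 15 pairs, 8 had a positive and 7 a negative Pearson correlation of log2 CPM over the 6 libraries, with a median of 0.08. VWF and TEK were the closest pair (r = 0.95), followed by PECAM1 with VWF (0.84), PECAM1 with TEK (0.81) and KDR with EGFL7 (0.81). KDR ran against TEK (-0.49) and VWF (-0.41), and ESAM against VWF (-0.49). FLT-1 went with VWF and TEK (0.87 each), and TIE-1 with PECAM1 (0.75) and KDR (0.61). These values describe 6 libraries of 1 tissue and include the difference between the groups; every low library was also deeper than every high library. As deviations from the group means, 12 of the 15 pairs were positive and 3 negative, with a median of 0.28. On that measure VWF with KDR had 0.11, PECAM1 with KDR 0.56, PECAM1 with EGFL7 0.70 and VWF with TEK 0.91.

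**Figure D3:**
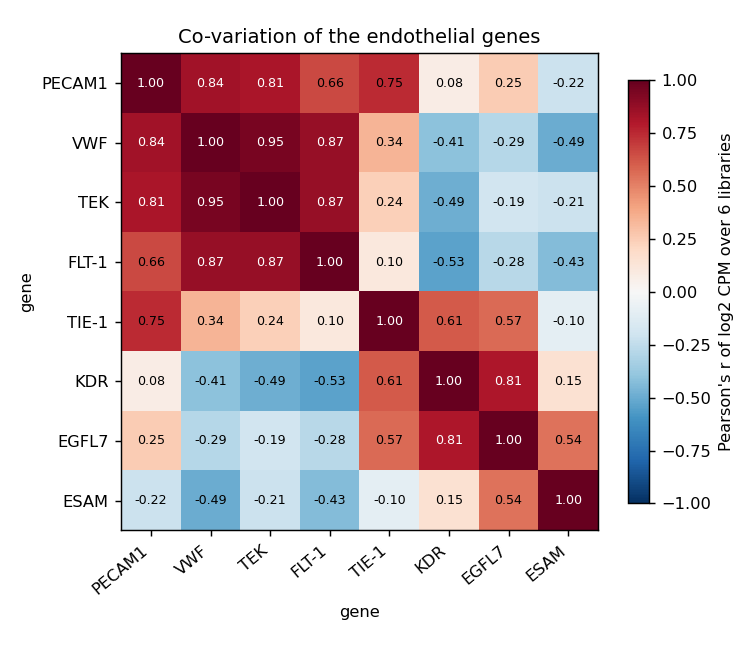
Pearson's r of log2 CPM over 6 libraries for each pair of endothelial genes, coloured from -1 (blue) to 1 (red), with TIE-1 and FLT-1 included. PECAM1, VWF, TEK and FLT-1 correlate at 0.66 or more with one another, KDR and EGFL7 at 0.81, and most values between these sets are negative when the difference between the groups is included.

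Ratios of reads between 2 genes of the same library do not depend on how the library is scaled. The ratio of VWF to KDR was 1.01, 1.13 and 1.03 in the high libraries, against 0.656, 0.2897 and 0.616 in the low libraries. All high libraries lay above all low libraries, low library 1 included. For KDR over TEK the ratio was 0.694, 0.581 and 0.5900 in the high libraries, against 0.958, 1.55 and 0.735 in the low libraries, again without overlap. TEK over EGFL7 gave 1.62, 1.56 and 1.46 in the high libraries, against 1.16, 0.768 and 1.24 in the low libraries. Of the 15 ratios, 7 had groups that did not overlap (46.7%), while 25.7% of all pairs of records in the table had none. The pairs were not matched for genomic span. PECAM1, VWF and TEK over EGFL7, all among the 7, set longer genes against a short one. The 15 ratios rest on the same 6 genes and are not independent, and none was tested, since the smallest p that an exact permutation test of 1 ratio can reach in this design is 0.1.

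Longer genes of the set tended to have higher log2 fold changes, as in the whole table. Over all records, Spearman's rho between span and log2 fold change was 0.41 (n = 7661 records), and over the 6 genes it was 0.77. VWF (72.9 kb), TEK (71.02 kb) and PECAM1 (54.7 kb) have the longest spans of the 6, and EGFL7 (9.96 kb) and ESAM (9.37 kb) the shortest. KDR, with 47.6 kb, was the exception: the trend at its span was 0.10 and its own log2 fold change -0.41. With the trend removed in each library, the log2 fold change was 0.51 for VWF, 0.18 for TEK, 0.13 for PECAM1, -0.10 for EGFL7, -0.06 for ESAM and -0.50 for KDR. Those of the other 5 genes thus moved towards 0, and that of KDR moved away from it. None passed the threshold (edgeR quasi-likelihood adjusted p between 0.252 and 0.885).

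**Figure D4:**
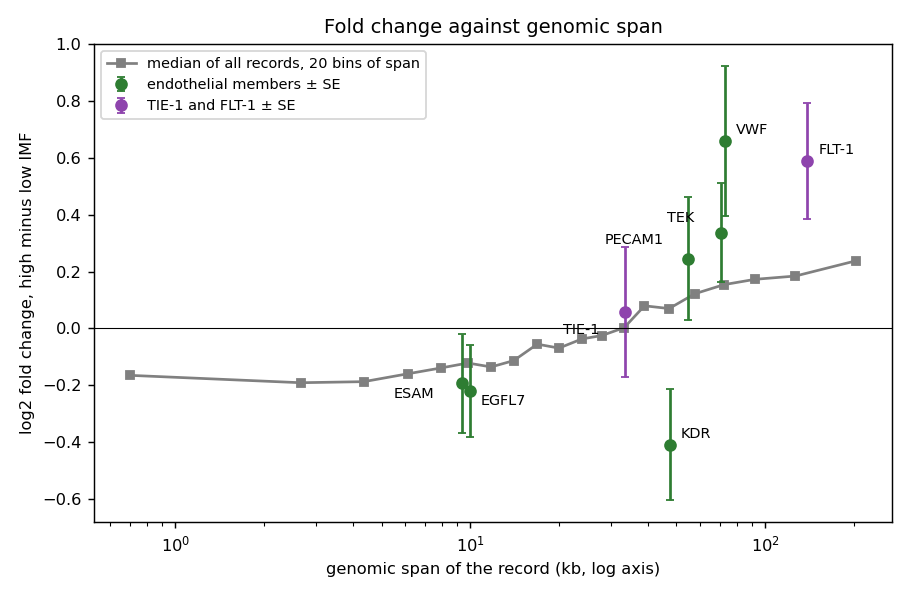
Log2 fold change (y axis, high minus low IMF, ± SE) against genomic span (x axis, kb, log scale) of the 6 endothelial genes (green) and of TIE-1 and FLT-1 (purple), with the median of all records in 20 bins of span (grey). ESAM and EGFL7, at about -0.2, lie slightly below the grey line, which is at -0.12 for the bin at 9.81 kb. VWF lies above the line and KDR below it.

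Ligands, co-receptors and regulators of the same receptors had 9 matched records of 18 symbols. Higher averages in the high group were seen for 6 and lower ones for 3, and 0 passed the threshold. The groups did not overlap in 5 higher and 2 lower records, beside 10.4% and 13.7% of all records. NRP2, 1 of the 5, exceeded that floor of 10 CPM in all 3 high libraries and in no low library, so it entered the table through the high group alone and its direction was favoured by that filter. VEGFA, the ligand of the KDR and FLT1 receptors, had 178, 233 and 110.4 CPM in the high libraries, against 239.9, 509 and 385 CPM in the low libraries. All high libraries were below all low libraries, with a log2 fold change of -1.10 (SE 0.33, edgeR quasi-likelihood adjusted p = 0.164). VEGFB, a ligand of VEGFR1, was at 27.5 ± 3.84 CPM in the high and 37.5 ± 1.94 CPM in the low group (-0.43, SE 0.14, edgeR quasi-likelihood adjusted p = 0.197). ANGPT2, the angiopoietin that endothelial cells make themselves, was at 10.8 ± 0.959 CPM in the high and 14.4 ± 4.24 CPM in the low group (-0.37, SE 0.20, edgeR quasi-likelihood adjusted p = 0.354).

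The 6 higher records were PTPRB, NRP1, NRP2, SVEP1, EPAS1 and HIF1A. PTPRB, the phosphatase VE-PTP that acts on Tie2, stood at 109.6 ± 16.6 CPM in the high and 70.7 ± 9.07 CPM in the low group, without overlap (0.65, SE 0.14, edgeR quasi-likelihood adjusted p = 0.112). The neuropilins, co-receptors of VEGF, had log2 fold changes of 0.32 (NRP1, SE 0.15) and 0.58 (NRP2, SE 0.20), neither past the threshold. SVEP1, a large matrix protein that binds the TIE1 receptor, was at 57.7 ± 12.3 CPM in the high and 29.8 ± 0.889 CPM in the low group (0.96, SE 0.16, edgeR quasi-likelihood adjusted p = 0.0782). EPAS1, the hypoxia-inducible factor 2 alpha that is abundant in endothelium, had 0.39 (SE 0.12) and HIF1A 0.18 (SE 0.22).

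Junction and adhesion partners had 19 records, 12 higher and 7 lower, a median of 0.06 and 0 past the threshold. HEG1, a receptor of endothelial junctions, was at 30.2 ± 1.43 CPM in the high and 11.6 ± 5.61 CPM in the low group, a log2 fold change of 1.39 (SE 0.31, edgeR quasi-likelihood adjusted p = 0.112). HEG1 exceeded 10 CPM in low library 1 but not in low libraries 2 and 3. CTNND1, the p120 catenin that stabilises cadherins, had 0.41 (SE 0.14), TJP1, a tight junction scaffold, 0.60 (SE 0.27), and MLLT4, the scaffold afadin, 0.37 (SE 0.21). A further record listed as ZO1, another name of TJP1, had 0.23 (SE 0.17) and is also counted among the 19. Transcription factors of endothelium had 10 records, 5 higher and 5 lower, with a median of 0.00300. MEF2C, which muscle fibres also express, stood at 190.5 ± 9.60 CPM in the high and 96.3 ± 10.8 CPM in the low group (0.99, SE 0.16, edgeR quasi-likelihood adjusted p = 0.0747). ETS1, FOXO1 (listed as FOXO1A) and LYL1 had 0.37, 0.43 and -0.29 (SE 0.16, 0.22 and 0.18), and none passed.

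Other genes enriched in endothelium had 27 records of 52 symbols, 18 higher and 9 lower, a median of 0.22 and 0 past the threshold. The groups did not overlap in 4 higher and 0 lower records of the 27, beside 10.4% and 13.7% of all records. CALCRL, the receptor of adrenomedullin, was at 31.1 ± 5.09 CPM in the high and 12.6 ± 6.82 CPM in the low group without overlap (1.32, SE 0.34, edgeR quasi-likelihood adjusted p = 0.140). It exceeded 10 CPM in low library 1 but not in low libraries 2 and 3. RAMP2, of the same list, had -0.19 (SE 0.16). CAV2, a protein of caveolae, had 0.38 (SE 0.14), RGCC (listed as RGC32) 0.47 (SE 0.18) and PODXL, a surface sialomucin, 0.26 (SE 0.11). CALCRL, CAV2, RGCC and PODXL were named for the smallest unadjusted p of this list. Of the 9 lower records, CLEC14A had -0.29 (SE 0.19), NOSTRIN -0.23 (SE 0.21), CD93 -0.13 (SE 0.32) and ROBO4 -0.07 (SE 0.21). The summed level of the 27 records ran from 1573 to 2007 CPM in the high and from 1341 to 1635 CPM in the low libraries. As for the 6 genes, low library 1 had the highest and low library 3 the lowest sum of the low group. A few abundant records weigh on that order. SPARCL1 had 394, 287 and 376 CPM in low libraries 1 to 3, and CAV1 had 347, 328 and 188 CPM.

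Markers of other cells in the tissue showed their own pattern in these libraries. All 17 fibroblast records had positive log2 fold changes (median 0.82), with summed levels of 3852 to 5258 CPM in the high and 1849 to 3223 CPM in the low libraries, and 0 passed the threshold. They cover 14 symbols, since COL1A1, COL1A2 and COL5A1 have 2 records each. Over the whole table, 3462 of 7661 records were higher. Pericyte and smooth muscle markers, cells that wrap the endothelium, had 13 records of 11 symbols, 6 higher and 7 lower, with a median of -0.000628. PDGFRB and NOTCH3 have 2 records each. RGS5, a pericyte gene, stood at 139 ± 14.5 CPM in the high and 84.8 ± 33.8 CPM in the low group (0.74, SE 0.26, edgeR quasi-likelihood adjusted p = 0.212). MYH11 (0.98, SE 0.22), ABCC9 (0.83, SE 0.24) and ACTA2 (0.45, SE 0.21) were also higher, and none passed the threshold. MYH11 exceeded 10 CPM in low library 1 but not in low libraries 2 and 3. The groups did not overlap in 3 higher and 0 lower records of the 13, beside 10.4% and 13.7% of all records. Further records of this list did not share that rise: PDGFRB had -0.000628 and -0.14, MCAM 0.02 and KCNJ8 -0.01. Of 7 adipocyte records, 6 were higher and 1, AQP7, was lower (-0.66, SE 0.24), and only the lipid droplet gene PLIN1 passed the threshold. The groups overlapped for LIPE (1.15, SE 0.45) and PLIN4 (0.38, SE 0.38). PLIN1, CIDEA and CIDEC (listed as CIDE-C) exceeded 10 CPM in no low library and entered the table through the high group alone, which favoured a higher value there. The summed levels of the 7 were 238 to 577 CPM in the high and 144 to 299 CPM in the low libraries, which overlap. PLIN4 alone had 126 to 315 CPM in the high and 91.5 to 224 CPM in the low libraries. The 2 matched macrophage records, MRC1 and CSF1R, were higher, with a median of 0.65 and summed levels of 45.7 to 76.4 CPM in the high and 24.5 to 49.6 CPM in the low libraries. Of 6 lymphatic markers only LYVE1, the hyaluronan receptor of lymphatic vessels, was matched, at 11.7 ± 5.45 CPM in the high and 6.95 ± 4.10 CPM in the low group. The part of these cells in the endothelial values was not tested.

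By position the 6 genes share little. TEK and EGFL7 are on the same chromosome, 95.4 Mb apart in the deposited coordinates, and the other 4 are on chromosomes of their own. All 10 other listed records within 1 Mb of EGFL7 were lower in the high group, with a median log2 fold change of -0.28, and 16 of 21 near VWF were lower (median -0.22) while VWF itself was higher. Over the whole table, 4199 of 7661 records were lower. Those near VWF are not all distinct: CD9 appears more than once, and SPSB2 overlaps TPI1 with nearly the same CPM. These counts were not adjusted for the trend with span. None of the records near any of the 6 genes passed the threshold.

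Among 6812 other records with a symbol, the pattern most like the mean log2 CPM of the 6 genes over the 6 libraries was that of MIOS (Pearson's r = 0.99), SMPDL3A (0.99), ASH2L (0.98), OSBPL11 (0.97), DCAF6 (0.96) and ALDH6A1 (0.96). The least like were CHRNB1 (-0.99) and P3H1 (-0.98). For single genes the nearest records were KIAA1462 for PECAM1 (0.99), STRN3 for VWF (0.999), ZNF33B for KDR (0.996), FMO1 for TEK (0.99), PPIG for EGFL7 (0.98) and ANXA8 for ESAM (0.99). These are the extremes of many records over few libraries and are given as a description.

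**Figure D5:**
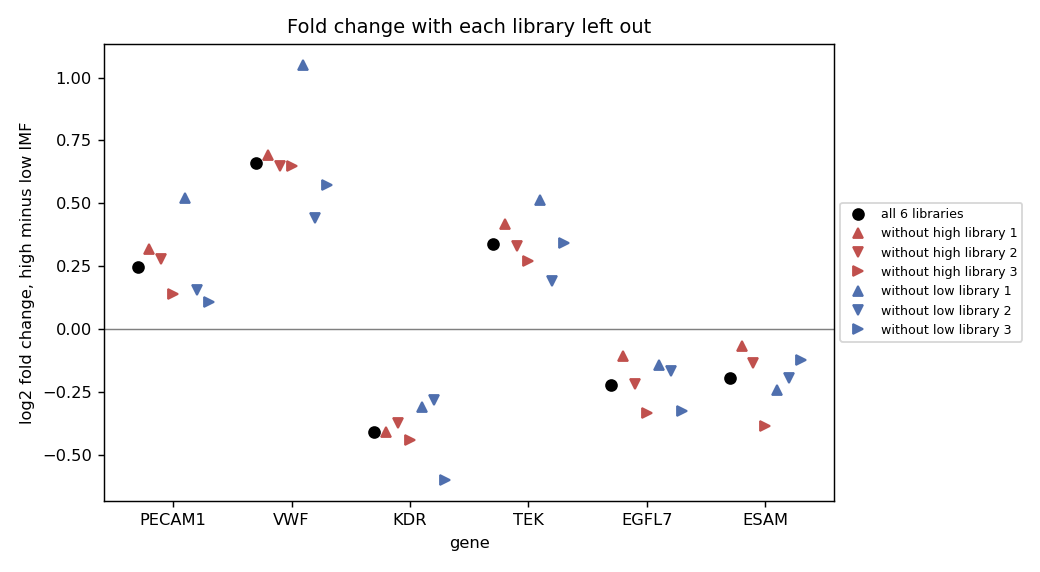
Log2 fold change (y axis, high minus low IMF) of the 6 endothelial genes with all libraries (black) and with each high (red) or low (blue) library left out. None of the 6 genes changes sign, and the farthest point is VWF without low library 1, at 1.05.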

How the data were processed

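RNA from longissimus muscle was sequenced in 6 libraries (TRIzol extraction and Illumina TruSeq preparation, per the labels' protocols). FastQC 0.10.1, Trimmomatic 0.22, TopHat2 2.0.4 and BWA 0.6.2 are named per the submitters' processing notes. Which counter, strand setting, build or annotation was used is not given in the sources. The authors deposited raw read counts per gene and CPM (counts per 1e+06 reads of 1 library total) without composition factors, and every listed gene exceeds 10 CPM in at least 3 libraries, so rarer genes are not analysed here. The deposited log2 fold changes (low over high), p-values and false discovery rates are the authors' own; their test is not named, and edgeR's exact test differed from the deposited log2 fold changes by at most 2.85e-08. Genomic spans are a further value in the deposited table.

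Counts were tested with edgeR 4.0.16 in R 4.3.3 (library totals recovered from counts and CPM, TMM, filterByExpr, which kept all 7661 records, quasi-likelihood F-test, no covariates, Benjamini-Hochberg adjustment over all records, threshold 0.05). Standard errors are the log2 fold change over the square root of F, and 95% intervals use the degrees of freedom of the fit. Correlations use TMM log2 CPM with a prior count of 2. The code was tested on simulated data. The members and lists were chosen with earlier results of these data known. Names came from the table or from an Ensembl name table. Named were every member, from the lists closest to endothelium up to 4 records with the smallest p per list, any past the threshold, and the records most or least like the members; further list members and neighbours were named after their values were seen. Alternatives were other size factors, library sizes or filters, DESeq2 1.42.0, limma-voom (limma 3.58.1), the exact test, the replicate block, each library left out, a threshold of 0.1, removal of the span trend (lowess on log10 span, fraction 0.3) and of the 35 mitochondrial genes. Promoter and protein sequences were not used here.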

Additional observations from a re-analysis of the deposited data

How the results depend on the processing

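The count of endothelial genes past the threshold was 0 under all 19 alternatives. Among them were DESeq2 (6.76% of all records called), edgeR's exact test (4.12%), limma-voom and a threshold of 0.1. Dropping the filter, a filter on mean CPM and library sizes from the listed genes returned the values of the main fit for each of the 6 genes. Those settings are included in the 19, and in the 17 below, but did not probe the result. Counting TIE-1 and FLT-1 as members was chosen after seeing the data. In the fit reported above 1 of the 6, VWF, had an unadjusted p under 0.05. None of the 6 genes changed sign under the 17 alternatives run for each, whereas the TIE-1 record, outside the rule, did without low library 3 (-0.14) and without high library 3 (-0.06). The smallest adjusted p was that of VWF without low library 1 (edgeR quasi-likelihood adjusted p = 0.0579; range over its alternatives up to 0.474). With each library left out, the log2 fold change ran from 0.44 to 1.05 for VWF, 0.19 to 0.51 for TEK, 0.11 to 0.52 for PECAM1, -0.60 to -0.28 for KDR, -0.33 to -0.11 for EGFL7 and -0.39 to -0.07 for ESAM, and the median of the 6 from -0.10 (without high library 3) to 0.19 (without low library 1). The replicate numbers are not stated to pair the pigs: same-numbered libraries had correlations of deviations of 0.12, 0.03 and -0.08, and not every library correlated best with its own number. With the replicate block 0 of the 6 and 2 of all records passed, against 11 without it. The pseudocount was not varied, since counts were tested. With 3 pigs per group the 95% intervals are wide, reaching down to 0.549-fold for KDR and up to 2.42-fold for VWF.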
